A study of Drosophila melanogaster with 11 samples.

Results

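The Polycomb group genes described here are 10 *Drosophila* genes that encode subunits of 3 chromatin complexes: *Pc*, *ph-p*, *ph-d*, *Psc*, *Su(z)2* and *Sce* of PRC1, *E(z)*, *esc* and *Su(z)12* of PRC2, and *pho* of PhoRC. They were picked by symbol from the 17771 genes of a table of read counts, and all 10 were found in it. The counts come from neuRNA-seq, in which cells take up the uridine analogue EU (0.2 mM for 1 h) and the labelled, newly made RNA is captured and sequenced, here as 50 bp single-end reads. The cells were Kc167 (Kc), an embryonic hemocyte line, harvested 5 days after transfection. The 2 *M1BP* knockdown libraries were from cells given 20 µg of double-stranded RNA against *M1BP*, which encodes a zinc-finger activator of constitutive promoters. The 2 *mod(mdg4)* knockdown libraries were from cells given 5 µg of double-stranded RNA against the Mod(mdg4)67.2 isoform of this *gypsy* insulator gene. A single library labelled *Cp190* knockdown was from cells given 12 µg against *Cp190*, which encodes another insulator protein. The 4 mock libraries were from cells taken through the transfection with no double-stranded RNA. All groups are the same line grown and labelled by the same protocol, and the study describes its RNA-seq replicates as biological. Its methods mention independent neuRNA-seq experiments, each with a count table that was normalized apart from the others. The labels do not tell which libraries came from which culture or experiment, so a knockdown may stand against mock libraries of another one. The p-values measure the spread between these libraries.

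Polycomb group proteins keep developmental regulators such as the Hox genes off in cells where they are not meant to be on. PRC2 methylates lysine 27 of histone H3, PRC1 binds that mark and compacts chromatin, and PhoRC holds the complexes at Polycomb response elements through the DNA-binding protein Pho. Some members are paralogues that lie side by side: *ph-p* with *ph-d*, and *Psc* with *Su(z)2*.

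The libraries differed in depth. The knockdown libraries held between 7462623 and 13181160 counted reads, and the mock libraries between 24944604 and 29680851. Levels are given below as CPM, the reads of a gene per 1000000 counted reads, scaled by TMM, which corrects the library totals for differences in composition. The mock libraries fell into pairs, with correlations of log2 CPM across genes of 0.996 between replicates 1 and 2, 0.995 between replicates 3 and 4, and 0.984 to 0.990 across the pairs. *M1BP* itself was at 21.4 and 31.4 CPM in its knockdown, against 44.3 to 54.8 CPM in mock cells. *Cp190* was at 4379 CPM in the library labelled *Cp190* knockdown, against 340 to 462 CPM in mock cells. This count runs against that label, so the library is called by its label only. Whether all these reads come from transcripts of the gene was not tested. The *mod(mdg4)* gene is not analysed here. Of the hemocyte markers, *srp*, *Hml* and *Pxn* were at 185 CPM or more in every library, while *NimC1*, *He* and *eater* were at 2.62 CPM or less in every library. The 8 hemocyte markers did not stay level in *M1BP* knockdown, where 3 lay above every mock library and 3 below. *Pxn* was at 599 and 921 CPM in *M1BP* knockdown, against 218 to 298 CPM in mock cells, and *Hml* at 512 and 368 CPM, against 265 to 278 CPM in mock cells. *srp* was at 2918 and 2280 CPM in *M1BP* knockdown, against 3472 to 5673 CPM in mock cells, *crq* at 29.9 and 21.6 CPM, against 40.5 to 48.1 CPM in mock cells, and *vkg* at 18.4 and 18.2 CPM, against 30.7 to 51.7 CPM in mock cells. Summed, the hemocyte markers came to 3610 to 4081 CPM in *M1BP* knockdown, 3015 to 4745 CPM in *mod(mdg4)* knockdown and 3029 CPM in the library with the *Cp190* label, against 4116 to 6246 CPM in mock cells. The 3 neuron markers, nearly all *elav*, summed to 145 to 179 CPM in *M1BP* knockdown, 80.1 to 116 CPM in *mod(mdg4)* knockdown and 184 CPM in the library with the *Cp190* label, against 79.1 to 131 CPM in mock cells. The muscle and fat body markers summed to 11.9 CPM or less and 2.94 CPM or less in every library. The part of these markers in the results below was not tested. Fewer cells and less RNA per cell cannot be told apart in such bulk samples.

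M1BP binds Motif 1, a core promoter element. The list of Motif 1 matches that accompanies the study was read for its sequences and positions as far as it was given. This was 1999 matches in windows that reach 1000 bp to each side of gene starts, next to 10.2% of the genes of the table. A member with no match among them is therefore not shown to lack the motif. *E(z)* and *Su(z)2* were the 2 members with a match. The *E(z)* match is shown because it is the member where a site of the depleted factor could be placed inside a transcript. It lies on dm6 at chr3L:10637857-10637871, on the minus strand like the gene, in an untranslated exon 15 bp past the nearest annotated transcript start and 266 bp inside the outermost gene start, read from the windows to within 1 bp, and the capitals mark the Motif 1 core:
*E(z)* Motif 1: acaacGGTCACACtg
The *Su(z)2* match lies 282 bp upstream of the gene start. A match is a description of these letters and not a measured binding site.

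In mock cells, reads per kb of gene placed *Su(z)2* first at 27.0 ± 1.07 CPM per kb (SD, n = 4), a PRC1 gene related to *Psc*. *Su(z)12*, the zinc-finger subunit of PRC2, followed at 24.4 ± 1.66 CPM per kb. *Sce*, which encodes the RING-finger E3 ligase that ubiquitylates histone H2A, was at 20.4 ± 2.44 CPM per kb. The ranges of these neighbours overlapped, *Su(z)2* with *Su(z)12* and *Su(z)12* with *Sce*, so their order is not set beyond the spread. Next came *ph-p* at 16.6 ± 0.793 CPM per kb, clear of both neighbours. *Psc*, a PRC1 subunit that compacts chromatin, was at 11.7 ± 0.453 CPM per kb, and *E(z)*, the methyltransferase of PRC2, at 10.6 ± 0.544 CPM per kb, with overlapping ranges. *Pc*, the chromodomain subunit that reads methylated histone H3, was at 8.03 ± 0.750 CPM per kb and *ph-d* at 7.91 ± 1.03 CPM per kb, also with overlapping ranges. *pho* was the lowest of the members with reads, at 4.87 ± 0.557 CPM per kb. Among the 8301 genes that passed the expression filter over the mock libraries, these 9 members lay between the 33.7 and the 76.3 percentile of CPM per kb. The whole gene length was used, introns included, and the share of spliced RNA was not measured. The order is therefore one of reads per length and not of transcription rates. Reads from the stretches that *ph-p* and *ph-d* share were not counted. The values of these paralogues, and their places in the order, may therefore be too low.

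**Figure D1:**
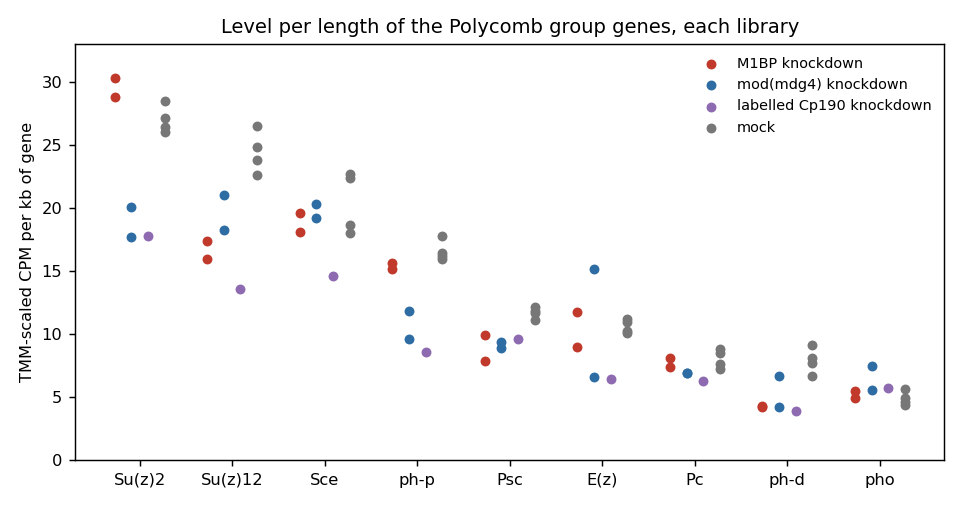
TMM-scaled CPM per kb of gene (vertical axis) for the 9 members with reads, ordered by their mock mean; each point is 1 library, with the *M1BP* knockdown, *mod(mdg4)* knockdown, labelled *Cp190* knockdown and mock libraries from left to right at each gene. *Su(z)2* is highest in the *M1BP* knockdown libraries and overlaps *Su(z)12* in mock cells, where *pho* has the lowest mean, 4.87 CPM per kb.

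The order was not the same in every group. *Su(z)2* reached 28.8 and 30.3 CPM per kb in the *M1BP* knockdown libraries and 17.7 and 20.0 CPM per kb in the *mod(mdg4)* knockdown libraries, against 26 to 28.4 CPM per kb in mock cells. *Su(z)12* was at 16.0 and 17.3 CPM per kb in the *M1BP* knockdown libraries and 18.2 and 21.0 CPM per kb in the *mod(mdg4)* knockdown libraries, against 22.6 to 26.5 CPM per kb in mock cells. In the *mod(mdg4)* knockdown libraries *Su(z)2*, *Su(z)12* and *Sce* therefore lay within 17.7 to 21.0 CPM per kb of each other, with overlapping ranges. At the low end, *ph-d* at 4.22 and 4.32 CPM per kb lay below *pho* at 4.92 and 5.46 CPM per kb in the *M1BP* knockdown libraries, whereas *ph-d* lay above *pho* in the mock libraries.

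*esc*, the WD40 subunit of PRC2, had 0 reads in all 9 libraries, and was not tested. A count of 0 alone would allow up to 0.349 CPM in the library with the highest such limit, which is 3 counts per library. The gene (FBgn0000588, chr2L:11827204-11829405) lies wholly inside *Pde1c* (chr2L:11814156-11928572), on the same strand. Reads were counted over whole gene bodies, and a read that falls in more than 1 gene of the same strand is left out under the default settings of the counter. Of the 1678 genes of the table that lie wholly inside another gene of the same strand, 1678 had 0 reads in all 9 libraries, against 1895 of the 16093 other genes (11.8%). The 0 for *esc* therefore gives no level for its transcription. Its paralogue *escl*, which encodes another WD40 subunit of this kind, was counted at 17.1 and 15.3 CPM in the *M1BP* knockdown libraries, 16.5 and 12.9 CPM in the *mod(mdg4)* knockdown libraries and, in the library with the *Cp190* knockdown label, 24.3 CPM, against 10.6 to 16.9 CPM in mock cells.

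The comparison of *M1BP* knockdown with mock cells asks which genes changed in level 5 days after transfection. It does not tell direct effects of this promoter factor from indirect ones. Of the 9 members tested, 2 fell, *ph-d* and *Su(z)12*, and 0 rose at an adjusted p under 0.05 in the quasi-likelihood test of edgeR, with p-values adjusted after Benjamini and Hochberg over 9511 genes. Over all genes tested, 11.5% were called lower and 16.5% higher. By DESeq2, 2 members were lower and 0 higher as well, against 14.2% and 18.7% of all genes. At an unadjusted p under 0.05 edgeR gave 3 lower and 0 higher, against 18.8% and 21.8% of all genes. The median log2 fold change was -0.06 over the members and -0.03 over all genes tested.

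*ph-d* encodes one of the paired Polyhomeotic proteins, the SAM-domain subunits through which PRC1 polymerises. It was at 32.6 and 31.9 CPM in the *M1BP* knockdown libraries, against 69.1, 61.3, 58.3 and 50.3 CPM in the mock libraries. Both knockdown libraries lay below every mock library. The log2 fold change was -0.84 (SE 0.17, 95% confidence interval -1.22 to -0.46, edgeR adjusted p = 0.00756). It lay between -0.92 and -0.78 when any single library was left out. The call was kept without any 1 of the mock libraries. Without a knockdown library only 1 remained in that group, so no call is given. *ph-d* and *ph-p* are near-identical in places, and the counter leaves out reads that align to more than 1 place, so the counts of both come from the stretches that differ between them.

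*Su(z)12* was at 90.5 and 83.4 CPM in the *M1BP* knockdown libraries, against 129, 138, 118 and 124 CPM in the mock libraries. The groups did not overlap. The log2 fold change was -0.51 (SE 0.13, 95% confidence interval -0.80 to -0.22, edgeR adjusted p = 0.0194). When mock libraries were left out, the call was lost without mock replicate 2 (adjusted p = 0.0563), without mock replicate 4 (adjusted p = 0.0542) and against mock replicates 3 and 4 alone (adjusted p = 0.0847), with log2 fold changes of -0.48, -0.52 and -0.44.

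*Psc* was at 148 and 118 CPM in the *M1BP* knockdown libraries, against 166, 175, 183 and 177 CPM in the mock libraries. It lay below every mock library, but its log2 fold change of -0.35 did not pass (95% confidence interval -0.65 to -0.05, edgeR adjusted p = 0.0818). It passed without *M1BP* knockdown replicate 2, at -0.55 (adjusted p = 0.0215), which left the lower of its knockdown libraries as the only one, assumed to vary like the mock libraries. With all libraries in place it also passed when they were scaled by their totals alone, at -0.45 (adjusted p = 0.0318). *Su(z)2*, next to *Psc* on the chromosome, was at 328 and 346 CPM in the *M1BP* knockdown libraries, against 297, 301, 325 and 310 CPM in the mock libraries. Both knockdown libraries lay above every mock library, and the log2 fold change of 0.18 did not pass (95% confidence interval -0.09 to 0.44, edgeR adjusted p = 0.299).

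The other 5 members were not called. *ph-p* was at 185 and 190 CPM in the *M1BP* knockdown libraries, against 194 to 216 CPM in mock cells, with a 95% confidence interval of the log2 fold change from -0.32 to 0.20. *E(z)*, whose transcript carries the Motif 1 match shown above, was at 32 and 41.6 CPM in the *M1BP* knockdown libraries, on either side of the 35.8 to 39.7 CPM in mock cells, and its interval ran from -0.36 to 0.39. *Cnep1r2*, which starts just outside *E(z)* on the other strand, was at 8.46 and 6.60 CPM in the *M1BP* knockdown libraries, against 11.1 to 11.9 CPM in mock cells, and its log2 fold change of -0.54 did not pass (edgeR adjusted p = 0.0819). The intervals were -0.32 to 0.31 for *Pc*, -0.45 to 0.32 for *Sce* and -0.22 to 0.50 for *pho*. In all, both *M1BP* knockdown libraries lay below every mock library for 4 of the 9 members and above for 1, while 27.1% of all genes tested lay below and 22.8% above in this way. The members' counts are to be read against these shares.

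**Figure D2:**
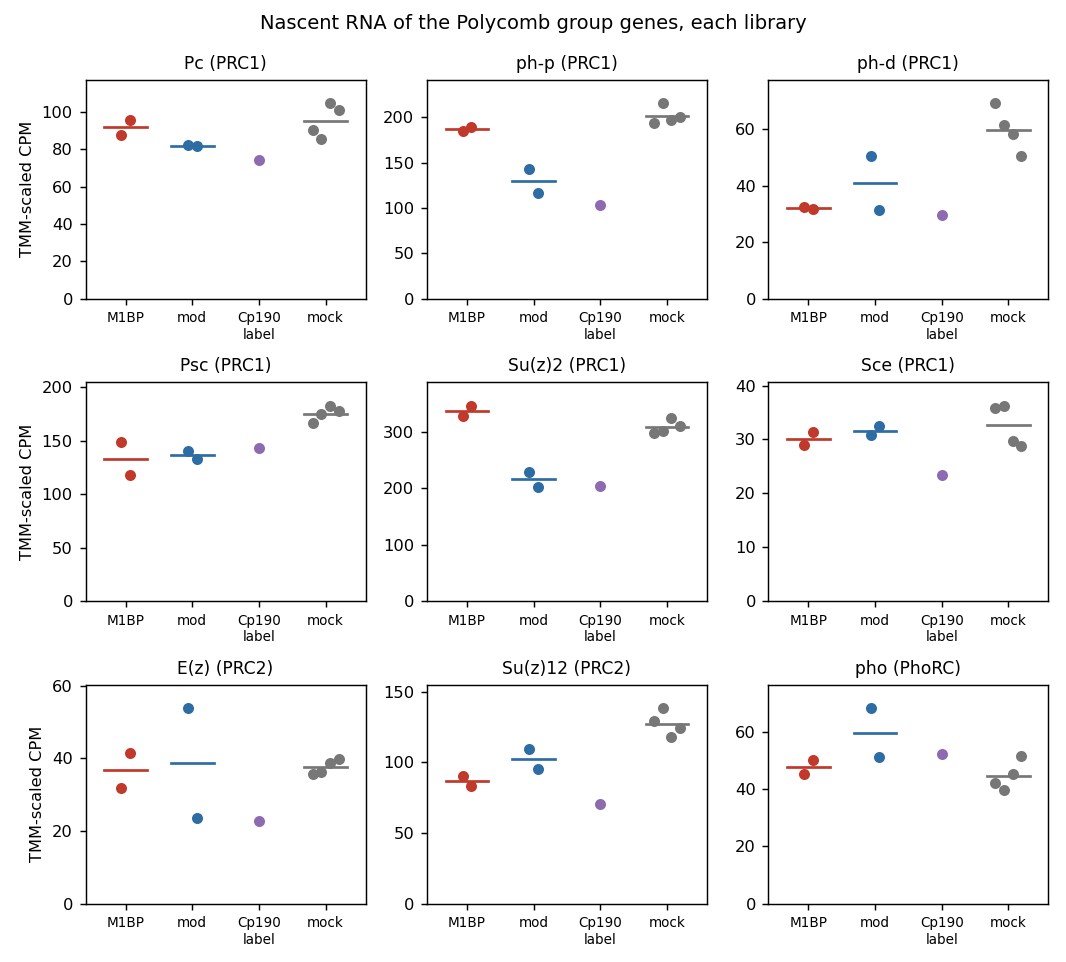
TMM-scaled CPM (vertical axes, each from 0) of the 9 members with reads; each point is 1 library and each line the mean of a group of 2 or more libraries, with *M1BP* knockdown, *mod(mdg4)* knockdown, the library labelled *Cp190* knockdown and mock from left to right. The *ph-d* points of the *M1BP* knockdown sit at 31.9 and 32.6 CPM, below all mock points, and the *ph-p* and *Su(z)2* points of the *mod(mdg4)* knockdown sit below all mock points.

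The comparison of *mod(mdg4)* knockdown with mock cells gave a smaller number of calls over all genes, 0.32% higher and 0.408% lower of 9066 genes tested by edgeR. Of the 9 members tested, 0 were called higher and 0 lower. At an unadjusted p under 0.05 there were 5 lower members and 1 higher member, against 10.8% and 9.82% of all genes tested. DESeq2 called 3 members lower and 0 higher, against 6.06% and 4.07% of all genes. The median log2 fold change was -0.29 over the members and 0.00 over all genes tested. All 6 PRC1 members had a negative log2 fold change, and 4 of them lay below every mock library, although that of *Sce* was 0.10 when libraries were scaled by their totals alone.

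*ph-p* encodes the other Polyhomeotic protein. It was at 143 and 116 CPM in the *mod(mdg4)* knockdown libraries, against 194, 216, 197 and 200 CPM in the mock libraries. The groups lay well apart, yet the log2 fold change of -0.61 (SE 0.12, 95% confidence interval -0.89 to -0.33) had an edgeR adjusted p = 0.0663. *Su(z)2* was at 229 and 202 CPM in the *mod(mdg4)* knockdown libraries, against 297 to 325 CPM in mock cells, also without overlap. Its log2 fold change was -0.49 (SE 0.11, 95% confidence interval -0.75 to -0.23, edgeR adjusted p = 0.0813). *Psc* was at 140 and 133 CPM in the *mod(mdg4)* knockdown libraries, against 166 to 183 CPM in mock cells, a log2 fold change of -0.33 (edgeR adjusted p = 0.143). DESeq2 called these 3 lower, with adjusted p = 0.000379 for *ph-p*, 0.00149 for *Su(z)2* and 0.0318 for *Psc*.

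The *mod(mdg4)* knockdown libraries differed from each other at some members. *E(z)* was at 53.8 and 23.5 CPM in them, on either side of the 35.8 to 39.7 CPM in mock cells. *ph-d* was at 50.5 and 31.5 CPM, against 50.3 to 69.1 CPM in mock cells, so that replicate 1 fell inside the mock range and replicate 2 below it. *pho*, the DNA-binding subunit of PhoRC, was at 68.1 and 51.1 CPM, against 39.8 to 51.5 CPM in mock cells, with a log2 fold change of 0.45 (95% confidence interval 0.07 to 0.82, edgeR adjusted p = 0.182). *Pc* was at 82.3 and 81.9 CPM, against 85.7 to 105 CPM in mock cells, and *Su(z)12* at 110 and 95.1 CPM, against 118 to 138 CPM in mock cells. Both lay below every mock library with log2 fold changes of -0.19 and -0.29, and neither passed. *Sce* was at 30.7 and 32.4 CPM, inside the 28.8 to 36.3 CPM in mock cells. In all, 5 of the 9 members lay below every mock library and 0 above, while 17.9% of all genes tested lay below and 13% above.

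The calls of this comparison turned on single libraries. Without *mod(mdg4)* knockdown replicate 1, the log2 fold changes were -0.77 for *ph-p*, -0.90 for *ph-d*, -0.58 for *Su(z)2* and -0.65 for *E(z)*. Only 1 knockdown library was left in that fit, so its spread came from the mock libraries. Without mock replicate 1, 2, 3 or 4, between 0 and 2 genes of the whole table were called.

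Since both knockdowns were set against the same mock libraries, they were also compared with each other directly. Of the 9 members tested, 0 were called by edgeR in *M1BP* knockdown against *mod(mdg4)* knockdown, where 4.84% of 8757 genes were called higher and 1.68% lower. At an unadjusted p under 0.05 there were 2 higher members and 0 lower, against 12.2% and 8.99% of all genes, and DESeq2 called 1 higher and 0 lower, against 7.77% and 2.41%. *Su(z)2*, at 328 and 346 CPM in *M1BP* knockdown against 229 and 202 CPM in *mod(mdg4)* knockdown, had a log2 fold change of 0.69 (95% confidence interval 0.15 to 1.23, edgeR adjusted p = 0.120, DESeq2 adjusted p = 0.0271). *ph-p*, at 185 and 190 CPM in *M1BP* knockdown against 143 and 116 CPM in *mod(mdg4)* knockdown, had a log2 fold change of 0.58 (95% confidence interval 0.04 to 1.11, edgeR adjusted p = 0.198). Both passed when all 9 libraries shared one model, with adjusted p = 0.0183 for *Su(z)2* and 0.0482 for *ph-p*. *ph-d*, lower in *M1BP* knockdown than in mock cells, was not shown to differ between the knockdowns (log2 fold change -0.30, 95% confidence interval -1.003 to 0.41), and neither was *Su(z)12* (-0.19, 95% confidence interval -0.74 to 0.36). With 2 libraries a side, these intervals leave room for differences larger than those against mock cells.

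**Figure D3:**
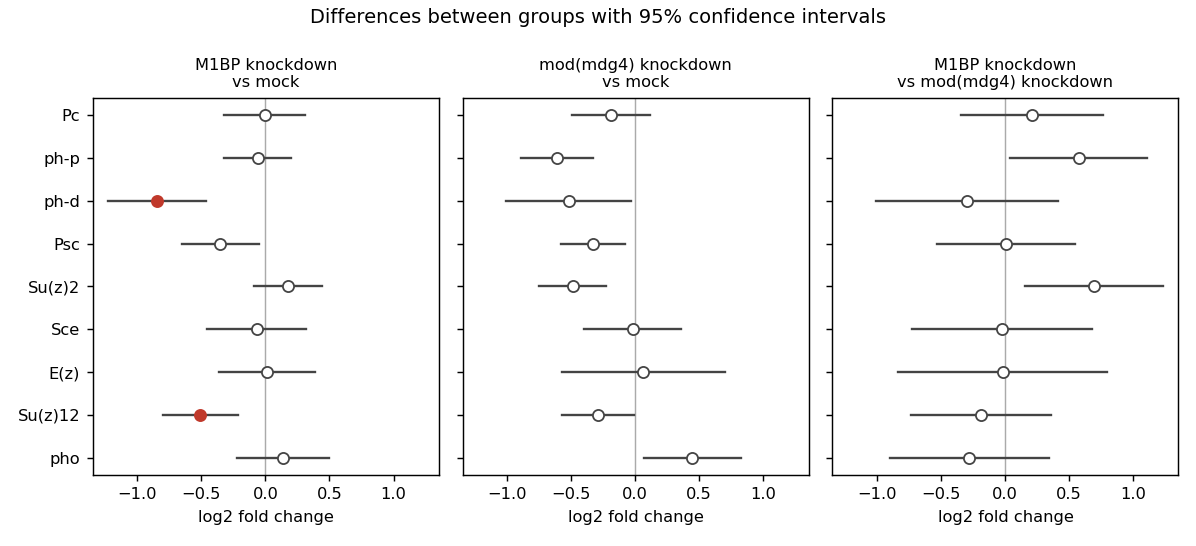
Log2 fold change (horizontal axis) of the 9 members tested in *M1BP* knockdown against mock, *mod(mdg4)* knockdown against mock and *M1BP* against *mod(mdg4)* knockdown; points are edgeR estimates, bars their 95% confidence intervals, and filled points passed an adjusted p of 0.05. The filled points are *ph-d* at -0.84 and *Su(z)12* at -0.51 in the first panel.

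The library labelled *Cp190* knockdown stood alone, so no test was made, and a member was set against the range of the 4 mock libraries. Of the 9 members with reads, 8 lay below that range and 1, *pho*, above it. Over 10180 genes compared, 45.6% lay below the mock range and 38.8% above, so that a gene inside the range was the exception. *ph-d* was at 29.5 CPM in this library (exact Poisson 95% interval 26.1 to 33.1, counting error only), against 50.3 to 69.1 CPM in mock cells, a log2 ratio of -1.02. It was the 1 member past 2-fold and outside the mock range, a rule that 45.6% of all genes compared met in either direction. *ph-p* was at 104 CPM, against 194 to 216 CPM in mock cells (log2 ratio -0.96), and *Su(z)12* at 70.8 CPM, against 118 to 138 CPM in mock cells (log2 ratio -0.85). *E(z)* was at 22.7 CPM, against 35.8 to 39.7 CPM in mock cells, and *Su(z)2* at 203 CPM, against 297 to 325 CPM in mock cells. The log2 ratios of *Sce*, *Pc* and *Psc* lay between -0.48 and -0.29. The median log2 ratio was -0.60 over the members and -0.12 over all genes compared.

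The neighbouring paralogues did not keep one ratio within the libraries. *ph-d* (chrX:2115727-2123286) and *ph-p* (chrX:2126210-2138371) lie 2923 bp apart on the same strand. The ratio of *ph-p* to *ph-d* reads was 5.66 and 5.95 in the *M1BP* knockdown libraries, 2.84 and 3.69 in the *mod(mdg4)* knockdown libraries and 3.53 in the library labelled *Cp190* knockdown, against 2.80, 3.52, 3.38 and 3.97 in the mock libraries. Both *M1BP* knockdown libraries thus lay above all others. *Psc* (chr2R:12965997-12980994) and *Su(z)2* (chr2R:12996501-13007911) lie 15506 bp apart on opposite strands. The ratio of *Su(z)2* to *Psc* reads was 2.21 and 2.94 in the *M1BP* knockdown libraries, 1.63 and 1.52 in the *mod(mdg4)* knockdown libraries and 1.42 in the library labelled *Cp190* knockdown, against 1.73 to 1.78 in the mock libraries. The mock libraries differed little here, and the *M1BP* and *mod(mdg4)* knockdown libraries lay on opposite sides of them.

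A ratio within a library does not depend on how libraries are scaled. The geometric mean of the *ph-p* to *ph-d* ratio in *M1BP* knockdown was 1.71 times that in mock cells (two-sided exact permutation p = 0.133, n = 2 and 4). For *Su(z)2* to *Psc* it was 1.45 times that in mock cells (two-sided exact permutation p = 0.133, n = 2 and 4). This is the smallest p that 15 regroupings of 2 and 4 libraries allow, and after adjustment over the 6 ratio comparisons made it was 0.267. Against *mod(mdg4)* knockdown, with 2 libraries a side, the smallest two-sided exact p is 0.333 and both ratios reached it. Beside these ratios, the log2 fold changes in *M1BP* knockdown were -0.06 for *ph-p* and -0.84 for *ph-d*, and 0.18 for *Su(z)2* and -0.35 for *Psc*.

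**Figure D4:**
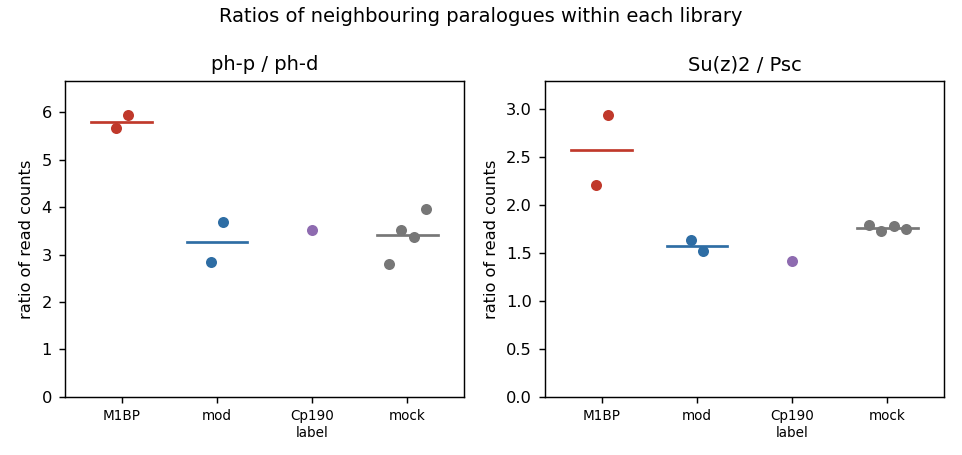
Ratio of read counts (vertical axes, from 0) of *ph-p* to *ph-d* and of *Su(z)2* to *Psc*; each point is 1 library and lines are arithmetic means of groups of 2 or more, with *M1BP* knockdown, *mod(mdg4)* knockdown, the library labelled *Cp190* knockdown and mock from left to right. The *M1BP* knockdown points, 5.66 and 5.95 in one panel and 2.21 and 2.94 in the other, lie above all other libraries.

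Added over the members, the reads came to 978 and 988 CPM in the *M1BP* knockdown libraries, 908 and 767 CPM in the *mod(mdg4)* knockdown libraries and, in the library with the *Cp190* knockdown label, 723 CPM, against 1059 to 1099 CPM in the mock libraries. The libraries of both knockdowns and the one with the *Cp190* label all lay below every mock library. Of single genes, 27.1% lay below in this way in *M1BP* knockdown, 17.9% in *mod(mdg4)* knockdown and 45.6% in the labelled library. No sums over other sets of genes were made for comparison. The sum is weighted to *Su(z)2*, *ph-p* and *Psc*, the members with the most reads.

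The partners of the members in their complexes were not called by edgeR in *M1BP* knockdown. *Scm*, a PRC1-associated SAM-domain gene, was at 282 and 290 CPM in *M1BP* knockdown, against 214 to 248 CPM in mock cells, and its log2 fold change of 0.35 did not pass (edgeR adjusted p = 0.0553). *Sfmbt*, the partner of Pho in PhoRC, was at 134 and 137 CPM in *M1BP* knockdown, against 114.9 to 142 CPM in mock cells. *phol*, a paralogue of *pho*, was at 139 and 121 CPM, against 151 to 183 CPM in mock cells, without overlap and with a log2 fold change of -0.27 that did not pass (edgeR adjusted p = 0.167). The PRC2 cofactors *Pcl* and *Jarid2* and the histone chaperone *Caf1-55* had log2 fold changes between -0.20 and 0.15 in *M1BP* knockdown and none passed. In *mod(mdg4)* knockdown these 6 genes and *escl* had log2 fold changes between -0.19 and 0.33, and none passed by edgeR.

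Of 20 Polycomb group genes outside the members, 1 rose and 2 fell in *M1BP* knockdown by edgeR, against 16.5% and 11.5% of all genes tested. This list includes the partners named above and *escl*. *corto*, which encodes a chromodomain protein, was at 5.61 and 5.22 CPM in *M1BP* knockdown, against 1.91 to 2.54 CPM in mock cells (log2 fold change 1.26, edgeR adjusted p = 0.0145). *E(Pc)*, of the Tip60 acetyltransferase complex, was at 528 and 545 CPM, against 867 to 953 CPM in mock cells (log2 fold change -0.70, edgeR adjusted p = 0.00586). *l(3)mbt*, a malignant brain tumour domain gene, was at 83.9 and 65.4 CPM, against 119 to 138 CPM in mock cells (log2 fold change -0.72, edgeR adjusted p = 0.00854). Their median log2 fold change was -0.12.

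The trithorax group genes, which counter Polycomb silencing, gave 1 higher (*tna*, log2 fold change 0.45, edgeR adjusted p = 0.0322) and 1 lower (*kto*, a Mediator kinase module gene, -0.70, edgeR adjusted p = 0.00472) of 19 in *M1BP* knockdown. Of 9 factors that bind Polycomb response elements, a list that shares *pho* with the members, 1 rose and 2 fell. The list also shares genes with the Polycomb group list above and with the trithorax group, so their counts are not separate. *grh* was at 5.45 and 10.9 CPM in *M1BP* knockdown, against 2.01 to 4.24 CPM in mock cells (log2 fold change 1.36, edgeR adjusted p = 0.03). *psq*, a GAGA-site binder, was at 647 and 688 CPM, against 920 to 952 CPM in mock cells (log2 fold change -0.44, edgeR adjusted p = 0.0295). *z*, which encodes Zeste, was at 80.2 and 61.0 CPM, against 100.5 to 114 CPM in mock cells (log2 fold change -0.55, edgeR adjusted p = 0.0233). The counts of both lists are to be read against the 16.5% of all genes that were called higher and the 11.5% called lower. The median log2 fold changes of these lists were -0.13 and -0.27.

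In *mod(mdg4)* knockdown, edgeR called 0 genes of these 3 lists. At an unadjusted p under 0.05, 1 of the 20 Polycomb group genes was higher and 1 lower. Of the trithorax group 1 was higher and 2 lower, and of the element-binding factors 2 were higher and 1 lower. Those 2 higher factors were *pho*, a member, and the same gene that was higher in the trithorax group. DESeq2 called 1 and 0, 1 and 1, and 1 and 1 genes of the lists higher and lower. Over all genes the shares at an unadjusted p were 9.82% higher and 10.8% lower, and by DESeq2 4.07% and 6.06%. In the library labelled *Cp190* knockdown, 16 of 20, 15 of 19 and 6 of 9 genes of the lists lay below the mock range, as did 45.6% of all genes compared. The last list shares genes with the other lists, so some genes are counted more than once.

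Most textbook targets of Polycomb silencing were at low levels in mock cells, 17 of 20 at a mean under 5 CPM, and most rose in *M1BP* knockdown. Whether Polycomb complexes silence them in Kc cells was not tested. Of these 20 targets (Hox genes and other developmental regulators), 19 were tested, 14 rose and 1 fell by edgeR, with a median log2 fold change of 2.24. Of the 15 targets that passed the expression filter by the mock libraries alone, 11 rose and 1 fell, with a median of 1.91. Among all genes tested, 16.5% were called higher and 11.5% lower. *ap*, which encodes the wing selector Apterous, was at 7.73 and 11.7 CPM in *M1BP* knockdown, against 0.882 to 1.32 CPM in mock cells (log2 fold change 3.17, edgeR adjusted p = 0.000358). *Ubx*, a Hox gene, was at 8.06 and 3.94 CPM, against 0.382 to 1.73 CPM in mock cells (log2 fold change 2.95, edgeR adjusted p = 0.00845). *en* had 31 and 8 reads in *M1BP* knockdown, against 6, 5, 0 and 3 in the mock libraries, and *wg* had 15 and 14 reads, against 2, 6, 4 and 7, so that both rest on few reads. Neither passed the expression filter by the mock libraries alone, so both had to be higher in the knockdown libraries to be tested. *Dfd*, a Hox gene and the 1 that fell, was at 7.08 and 5.68 CPM in *M1BP* knockdown, against 13.9 to 20.3 CPM in mock cells (log2 fold change -1.37, edgeR adjusted p = 0.00510).

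Genes at low levels were often called higher in this comparison. Of the 2979 tested genes with a mock mean under 5 CPM, 33.7% were called higher, and of the 16 tested targets under that level, 13 were. A gene that is low in mock cells may have passed the expression filter only through the knockdown libraries, and then had to differ. Of the 12 targets under 5 CPM that passed by the mock libraries alone, 10 rose and 0 fell, while 24.5% of the 2269 genes under 5 CPM that passed in this way were called higher. In *mod(mdg4)* knockdown, 0 of 16 tested targets were called by edgeR, with 0 higher and 1 lower at an unadjusted p under 0.05 and 0 higher and 1 lower by DESeq2. In *M1BP* against *mod(mdg4)* knockdown, 2 of 18 tested targets were higher, *ap* (log2 fold change 3.30, edgeR adjusted p = 0.0265) and *tsh* (3.17, edgeR adjusted p = 0.00485). The shares of all genes called between the knockdowns were 4.84% higher and 1.68% lower. In the library labelled *Cp190* knockdown, 13 of the 18 targets compared lay above the mock range and 2 below, against 38.8% and 45.6% of all genes compared. The part of the members' own levels in these values was not tested.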

How the data were processed

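Reads from 11 neuRNA-seq libraries were, per the methods and labels, trimmed by the authors with cutadapt 2.7 (quality 20, minimum length 25), aligned with HISAT2 2.1.0 to the dm6 genome with the FlyBase annotation and counted with featureCounts 1.6.4 over whole genes on the sense strand, and the authors' own comparisons used DESeq2 1.22.1. The authors deposited raw read counts per gene without normalization, with gene positions and lengths. Of the count columns, 2 share the heading of *Cp190* knockdown replicate 2 and none is headed for *M1BP* knockdown replicate 1, so these 2 were not used and 9 libraries remained. Of 17771 genes, 17651 had a symbol.

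Counts were tested in R 4.3.3 with edgeR 4.0.16 (TMM, filterByExpr, quasi-likelihood F test, Benjamini-Hochberg over all genes tested, threshold 0.05), for each knockdown with 2 libraries against mock and between both. DESeq2 1.42.0, other scalings, filters, a replicate block and left-out libraries were alternatives. The edgeR step was tested on simulated data. The library labelled *Cp190* knockdown was compared as log2 CPM (prior count 2) with the mock mean, naming genes at least 2-fold away and outside the mock range. Motif searches in promoters were planned but not made, as no promoter sequences were used here. The text names the 10 members, their partners, the targeted genes and, from each gene list, up to 4 called genes with the largest change; *Dfd* and *Cnep1r2* were added after their values were seen. Members and lists were chosen with earlier results of these data known.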

Additional observations from a re-analysis of the deposited data

How the results depend on the processing

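Depth limited the knockdown libraries, which held less than the shallowest mock library. Each knockdown has at most 2 libraries. In the library labelled *Cp190* knockdown, 8 members lay below the mock range under both alternative scalings. Same-numbered libraries deviated with correlations of -0.165 (*M1BP*) and -0.0593 (*mod(mdg4)*) from their group means, so the numbers are not shown to pair libraries. With the replicate block, *M1BP* knockdown gave 566 called genes and 0 called members (main 2671 and 2), with *ph-d* at -0.84 (adjusted p = 0.158) and *Su(z)12* at -0.51 (adjusted p = 0.429), and *mod(mdg4)* knockdown gave 141 called genes (main 66). With the numbers crossed, an alternative added after the data were seen, *M1BP* knockdown gave 1395 called genes and 1 called member. No paired analysis was possible because the *M1BP* and *mod(mdg4)* knockdown libraries share only 1 replicate number, for the comparison between them.

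In *M1BP* knockdown against mock, 1723 genes were called with all libraries in one model, 1102 genes and 1 member at an adjusted p under 0.01, 1255 genes against mock replicates 1 and 2 only, and 1349 genes and 1 member against mock replicates 3 and 4 only. Leaving out single libraries gave 1667 to 3227 genes and 1 to 3 members. In *mod(mdg4)* knockdown, DESeq2 called 918 genes and 3 members, 2 genes passed an adjusted p under 0.01, 0 passed against either pair of mock libraries, and left-out libraries gave 0 to 1287 genes and 0 to 4 members. Between the knockdowns (main 571 genes), DESeq2 called 891 genes and 1 member, no filter 934, all libraries in one model 1647 genes and 2 members, an adjusted p under 0.01 248, and left-out libraries 346 to 708 genes.

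Scaling by library totals alone placed the median log2 fold change of all genes at -0.13 in *M1BP* knockdown, 0.12 in *mod(mdg4)* knockdown and -0.27 between them, in place of -0.03, 0.00 and -0.02. The higher and lower calls were then 1399 and 1430 in place of 1574 and 1097 in *M1BP* knockdown (1743 and 843 by upper-quartile scaling), 51 and 28 in place of 29 and 37 in *mod(mdg4)* knockdown, and 253 and 261 in place of 424 and 147 between the knockdowns. The cause was not tested.

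Members near a log2 fold change of 0 changed sign between settings, with no call on either side in fits that kept 2 or more libraries a group. In *M1BP* knockdown, *Pc* (main -0.006) was 0.018 by DESeq2 and by its size factors, 0.073 by upper-quartile scaling, 0.059 with at least 10 counts in every library, 0.0040 with the replicate block, 0.0039 when crossed and 0.12 against mock replicates 1 and 2 only. *E(z)* (main 0.013) was -0.080 by library totals, -0.034 with no filter, -0.014 with all libraries and -0.057 against mock replicates 3 and 4 only. *ph-p* (main -0.06) was 0.020 by upper-quartile scaling and 0.0048 with at least 10 counts, and *Sce* (main -0.068) was 0.012 by upper-quartile scaling and 0.080 against mock replicates 3 and 4 only. In *mod(mdg4)* knockdown, *Sce* (main -0.019) was 0.097 by library totals and 0.15 against mock replicates 3 and 4 only. Between the knockdowns, *Sce* (main -0.022) and *E(z)* (main -0.019) were 0.025 and 0.025 by DESeq2, 0.025 and 0.023 by its size factors, 0.011 and 0.014 by upper-quartile scaling and 0.022 and 0.027 with at least 10 counts. *Pc* (main 0.21) was -0.035 and *Psc* (main 0.0068) -0.24 by library totals, and *Psc* was -0.0010 with no filter and -0.024 with all libraries. Leaving out single libraries gave -0.10 to 0.044 for *Pc* and -0.22 to 0.17 for *E(z)* in *M1BP* knockdown, and -0.082 to 0.034 for *Sce* and -0.65 to 0.52 for *E(z)* in *mod(mdg4)* knockdown. Between the knockdowns it gave -0.59 to 0.098 for *ph-d*, -0.16 to 0.15 for *Psc*, -0.097 to 0.041 for *Sce* and -0.49 to 0.71 for *E(z)*.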
